A study of Homo sapiens with 2 samples.

Results

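The RNF and TRIM genes encode ubiquitin ligases, and their messenger RNAs were examined here for N6-methyladenosine (m6A) in HEK293T, a cell line of human embryonic kidney origin. Members were taken by name alone, as every gene whose symbol in either deposited list starts with RNF or TRIM followed by a digit. There were 106 such genes among 11406 named genes, and 95 of 9521 when a gene needed at least 1 site listed in both replicates (a shared site). The 95 genes comprised 59 RNF and 36 TRIM genes and held 660 shared sites, 1.18% of all shared sites in named genes. RNF213 alone held 62 of them (9.39%), so results are given with and without it.

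The series measured m6A with GLORI, a treatment that turns unmethylated adenosine into inosine, which is sequenced as G, while m6A is still sequenced as A. Both libraries came from wild-type cells at day 0, GLORI treated, with 100 to 200 ng of oligo(dT)-purified mRNA each, and they form 1 group of 2 replicates with no second group. The level of a site is the percentage of its reads that show A, and each file lists only sites with at least 15 reads, 5 A reads and a level of 10%. Replicate 1 listed 72449 sites and replicate 2 listed 81554, of which 60462 were shared. Only libraries, sites or genes can thus be compared. The labels do not tell whether the libraries came from separate cultures, and the spread between them may be technical. The lists hold no expression values, so the cell line could be checked only loosely: 4 of 5 genes known from HEK293 cells (PAX2, NEFL, NEFM and INA, but not LHX1) had a shared site, against 0 of 5 markers of blood, liver, endothelium and fibroblasts, and an unlisted gene may still be expressed.

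Ubiquitin ligases bring an E2 enzyme loaded with ubiquitin to a substrate, and most RNF and TRIM proteins do so through a RING domain. TRIM proteins follow the RING with B-box and coiled-coil domains and a variable C-terminal part that often selects the target; several act in innate immunity or in chromatin. RNF proteins share only the RING and range from enzymes of DNA repair to membrane proteins of the endoplasmic reticulum. m6A is laid down on mRNA mainly in a short sequence context called DRACH, often near stop codons and in long internal exons, and it is known for promoting mRNA turnover.

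Sequence could be read for 16 of the 660 sites, those that lay inside RefSeq windows of 300 bases around annotated gene starts, those of neighbouring and antisense genes included (GRCh38.p14; 250 bases before to 50 from the start on). All 16 were an A on the strand of the transcript. DRACH is A, G or T, then A or G, then AC, then A, C or T, with the methylated A in the middle, and 11 of the 16 sites (68.8%) stood in it. Of 1337 sites of other genes that could be read in the same way, 42.9% did, and 7.25% of all A bases in the 35116 windows did, where each window was searched on its own gene's strand only. DRACH occurred at least once in 97.2% of these windows. The 16 sites came from 10 genes, 5 of them from RNF217, and only the position of the windows decided which sites could be read. The sets also differed in make-up. Of 1343 other sites in windows (1337 with all 5 bases), 334 stood at an annotated first nucleotide. At or upstream of the start that the windows give for their own gene were 533. Among the 16 sites these counts were 1 and 3. A start given in the windows can lie inside the annotated gene, and all 660 sites of the members lay inside theirs. The part of this make-up in the shares was not tested.

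Of the read sites 4 (25%) shared one core, GGACT, against 14.2% of the sites of other genes, with the same difference in make-up. GGACT is one of the DRACH sequences and was found in 25.3% of all windows. The 4 sites are shown because their levels differed widely. Capitals mark the methylated A with 2 bases on each side, and each sequence runs 5′ to 3′ on the transcript strand.
RNF113A: ggagctcaGGACTctaaaatg
TRIM7: tcccccacGGACTtggcgatg
TRIM4: ctcacgtcGGACTccgtctcc
RNF10: cccggcccGGACTcccgagcc
The site of RNF113A, a spliceosome-associated RING protein, lies at position 119871621 of chromosome X (minus strand) and had levels of 96.9% in replicate 1 and 95.7% in replicate 2 (31 of 32 and 44 of 46 reads, 95% Wilson interval 89.3 to 98.7). TRIM7 is a ligase of the PRY-SPRY class, and its site at position 181204321 of chromosome 5 (minus strand) had 37.5% and 68% from only 16 and 25 reads (41.0 to 70.1). TRIM4, of the same class, had its site at position 99919428 of chromosome 7 (minus strand), with 23.9% and 21.2% (92 and 113 reads, 17.3 to 28.6). In RNF10, position 120534578 of chromosome 12 (plus strand) had 11.4% and 12.9% (263 and 342 reads, 9.86 to 15.1). The interval of RNF113A lay above the other 3, and that of RNF10 below the other 3, so sites with this one core spanned almost the whole listed range.

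Close to the annotated start of RNF217, a ligase of the RING-between-RING class that acts on the iron exporter ferroportin, 5 shared sites fell within a stretch of 182 bases of chromosome 6 (plus strand). They are shown in their order along the transcript.
RNF217 at 124962987: tggtcctGGACGtgctgggt
RNF217 at 124963024: tcgccaagAGACAagtcttct
RNF217 at 124963044: tgctccgtGTACTgcgtggag
RNF217 at 124963131: ccagtgttGAACCctcccagc
RNF217 at 124963168: ccagccccCGACTgtccctcc
The first had 72.5% and 64.7% (40 and 34 reads) in a core that ends in G and so is not DRACH. The second and the fourth stood in DRACH and had means of 39.6% and 36.9%. The last had 18.3% and 13.7% (126 and 146 reads, 11.95 to 20.6) in a core that starts with C. A further site 11 bases upstream of the first, at position 124962976, had 92.9% and 91.7% (28 and 24 reads), and its sequence could not be read.

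At or near an annotated start the sequence differed again. Position 44631968 of chromosome 1 (plus strand) is the base given as the start of RNF220 in the windows. The annotated RNF220 gene itself begins upstream, at position 44404783, so this base lies inside the gene. Position 85595748 of chromosome 2 (plus strand) lies 3 bases downstream of the annotated start of RNF181.
RNF220: tcacgtgaTTAGGgccaacat
RNF181: gggctgtgTCAGAaggctggg
Neither core is DRACH. The RNF220 base had 26.7% and 22.2% (30 and 36 reads, 15.5 to 35.8) and the RNF181 base 32.3% and 36.1% (65 and 97 reads, 27.7 to 42.2). An adenosine next to the cap can carry m6Am, which is methylated on the same nitrogen as m6A. Whether transcripts begin at these bases, and whether the bases carry m6Am, was not tested.

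Over the 660 shared sites the libraries gave nearly the same levels. The median absolute difference was 5.36 percentage points, against 4.86 over all other named genes, and 95% of the sites differed by less than 19.8 points. Pearson's r was 0.944 and Spearman's rho 0.931 across sites, which are not independent replicates. Fisher's exact test on the A and G reads, two-sided and adjusted by Benjamini-Hochberg over all 60462 shared sites, called 0 of the 660 sites, and the called share over the whole series was 0%. At an unadjusted 0.05 there were 17 sites (2.58%), against 3.06% over the series. RNF44, a RING ligase, held the site that differed most, with 70% in replicate 1 and 37.5% in replicate 2 at position 176537175 of chromosome 5 (14 of 20 and 9 of 24 reads, adjusted p = 1 by the same exact test). At this depth the adjusted test can call only large differences. The squared difference between the libraries was therefore also divided by the variance expected from read sampling alone, which gives a mean near 1 if nothing else adds to it. The mean was 0.928 over 656 of the members' sites (the others were at 100% in both libraries), 0.974 over those with at least 50 reads in both libraries and 1.21 in RNF213, against 0.936 over the series. Since the levels differed on average by no more than the sampling noise, the files were counted as 1 sample. Values below are per file or their mean, with no SD, and intervals and standard errors (SE) cover counting error only.

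**Figure D1:**
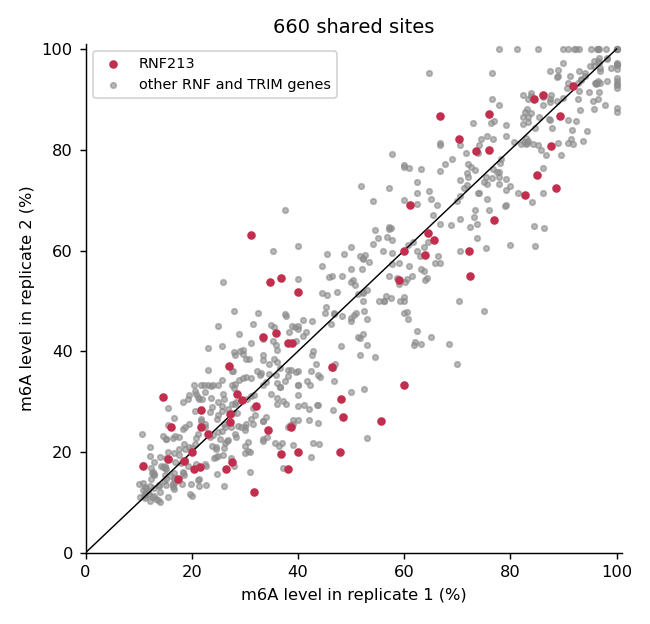
Level of each of the 660 shared sites of RNF and TRIM genes in replicate 1 (x axis, %) and replicate 2 (y axis, %); each point is a site, RNF213 is in red, and the line marks equal levels. The points follow the line over the whole range (Pearson's r 0.944), with more scatter for RNF213 (0.868).

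Site lists overlapped about as in the rest of the series. Replicate 1 listed 767 sites in these genes and replicate 2 listed 892. The 660 shared ones were 86.0% of the first (83.4 to 88.3) and 74.0% of the second (71.0 to 76.8), against 84.1% and 75.5% for other named genes. Sites found in 1 library only were weaker or shallower, with median levels of 21.6% (107 sites, median 28 reads) in replicate 1 and 26.3% (232 sites, 25 reads) in replicate 2. The 11 genes without a shared site had 23 listed sites in all. TRIM71, the stem cell ligase that is a let-7 target, had 2 sites in replicate 1 and 4 others in replicate 2, all of 15 to 17 reads. RNF125 and RNF138 had 1 site each in replicate 1 only, while TRIM66 had 3, TRIM46 2 and TRIM35 3 in replicate 2 only. RNF5, TRIM5, TRIM36 and TRIM67 were in neither list.

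Each gene had a median of 5 shared sites (quartiles 2 and 9), against 4 (2 and 8) over the 9426 other named genes. The rho of the number of sites with the authors' gene coverage was 0.338 across the 95 genes and 0.129 across other genes. Because the listing limits are counted in reads, each gene was set against the median of the 200 other genes nearest to it in that coverage. Transcript length was not matched. The number of sites was above that median in 57 of 95 RNF and TRIM genes (60%), equal in 10 and below in 28. Among all other genes treated in the same way 45% lay above and 42.8% below. Without RNF213 the count was 56 of 94 (59.6%). The surplus changed with the minimum number of reads. With at least 30 reads per site in both libraries, 44.6% of 74 genes lay above, against 44.1% of other genes, and with at least 50 reads 52.8% of 53 genes against 41.9%. No test over genes was made, because genes are not replicates. Only 10 genes (10.5%) reached the 90th percentile of their like-covered genes, close to the 9.45% of other genes that did.

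Averaging the shared sites of each gene gave a median level of 48.3% in RNF and TRIM genes (48.7% without RNF213) against 46.5% in other genes. It lay above that of like-covered genes in 47 of 95 genes (49.5%), against 50.1% of other genes. This share depended on the library: over the sites of replicate 2 alone it was 61 of 102 genes (59.8%, against 50.1% of other genes), and over those of replicate 1 alone 53 of 100. Coverage and level ran in opposite directions, with a rho of -0.539 across the 95 genes and -0.416 across other genes. Of a site with 15 reads, the limit of 5 A reads admits no level below 33.3%. RNF genes had a median level of 47.7% and TRIM genes 51.9%, with median gene coverages of 32.5 and 18.6, so the families differ in depth as well.

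**Figure D2:**
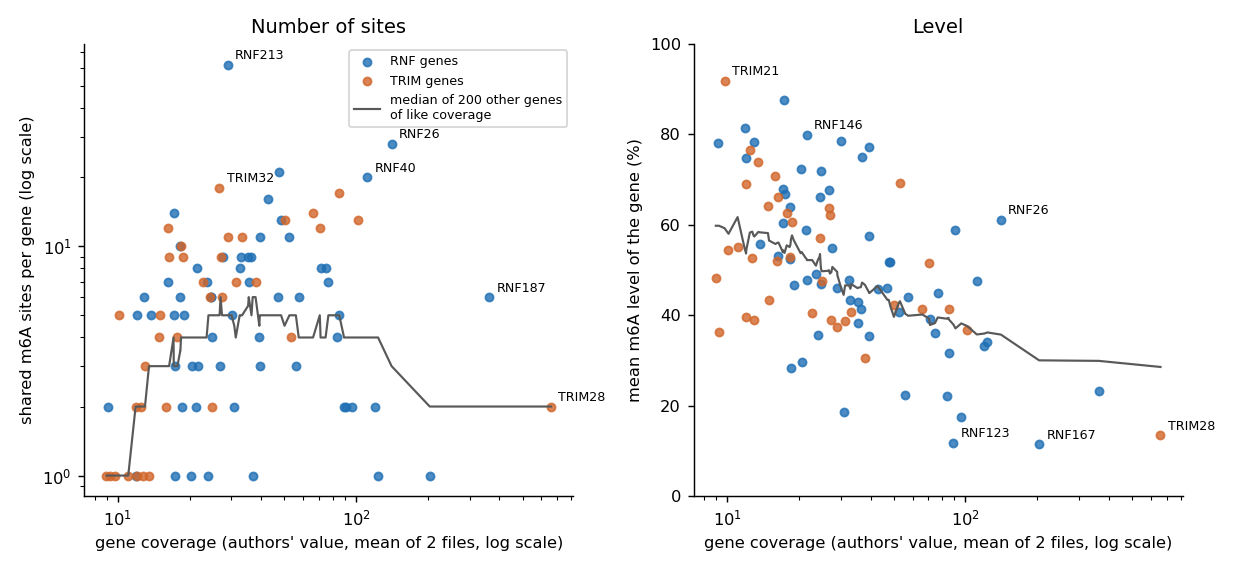
Number of shared sites (left, log scale) and mean level in % (right) of each RNF gene (blue) and TRIM gene (orange) against the authors' gene coverage (log scale); the grey line is the median of the 200 other genes nearest in coverage. RNF213 with 62 sites and RNF26 with 28 stand far above the line on the left. Levels tend to fall with coverage on the right, with 13.5% in TRIM28 at the highest coverage. The lowest levels are 11.5% in RNF167 and 11.8% in RNF123.

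Single sites covered the range of other genes too. The median site level was 43.9% (46.1% without RNF213) against 44.9% elsewhere. There were 132 sites at 80% or more (20%, interval 17.1 to 23.2), against 20.1% in other genes, and 90 sites under 20% (13.6%, 11.2 to 16.5), against 15.2%. Most of the spread lay inside genes: among the 55 genes with at least 5 sites, 84.1% of the variance of site levels was within genes, against 83.4% in other genes, and the median SD among the sites of a gene was 26.0 points.

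**Figure D3:**
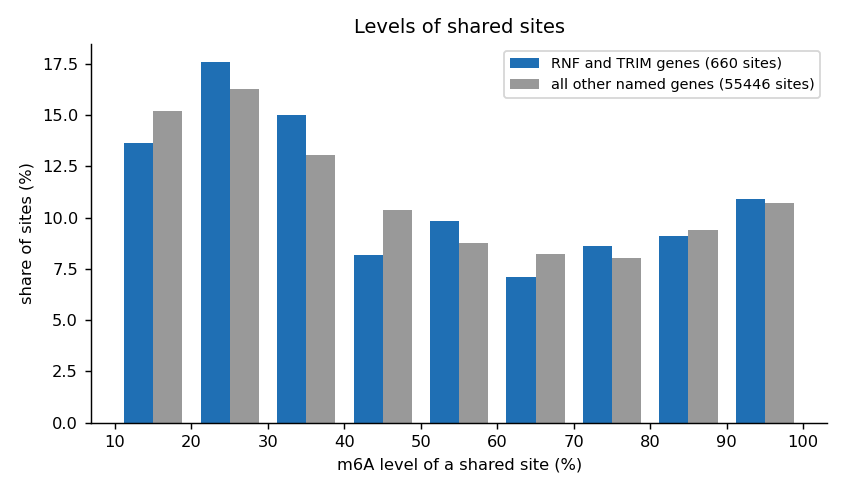
Share of shared sites (y axis, %) in each 10-point class of level (x axis, %) for RNF and TRIM genes (blue, 660 sites) and all other named genes (grey, 55446 sites). Both peak between 20 and 30%, at 17.6% and 16.3% of the sites, and have a second, lower rise above 90%, at 10.9% and 10.7%.

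RNF213 is a giant ligase with ATPase modules, known as the susceptibility gene for moyamoya disease and for tagging intracellular bacteria with ubiquitin. It spans 137.9 kb of chromosome 17 (80260852 to 80398794, plus strand). Replicate 1 listed 72 sites, replicate 2 listed 77, and 62 were shared, against a median of 5 among genes of like coverage, none of which had as many. Its level was 47.1% in replicate 1 and 44.8% in replicate 2, with a mean of 45.9% ± 0.71 (SE), a little under the 49.6% of like-covered genes. RNF213 thus stood out by the number of its sites, while its level was at the 42nd percentile of like-covered genes. The matching was by coverage and not by transcript length, so this number is not a density of sites.

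The sites of RNF213 were gathered in a few places. When the gene was cut into 10 equal parts, 57 of the 62 sites fell in 3 of them and 4 parts held none. The sixth part held 14 sites and the seventh 29, all 29 within 3293 bases between positions 80344822 and 80348114. The last part held another 14 within 1470 bases, from 80393567 to 80395036. Median levels were 46.5% in the sixth part, 38.1% in the seventh and 55.3% in the last. The highest site, at position 80345879, had 91.9% and 92.7% (34 of 37 and 51 of 55 reads, 85.1 to 96.3), and the lowest, at 80347112 in the same stretch, 10.9% and 17.2% (6 of 55 and 10 of 58, 8.91 to 21.8). The best covered site, at 80339768, had 73.5% and 79.7% (83 and 74 reads). Coverage was modest throughout: only 8 of the 62 sites had at least 50 reads in both libraries, and the median difference between libraries was 8.36 points. Exons were not analysed here, and all these distances include introns.

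**Figure D4:**
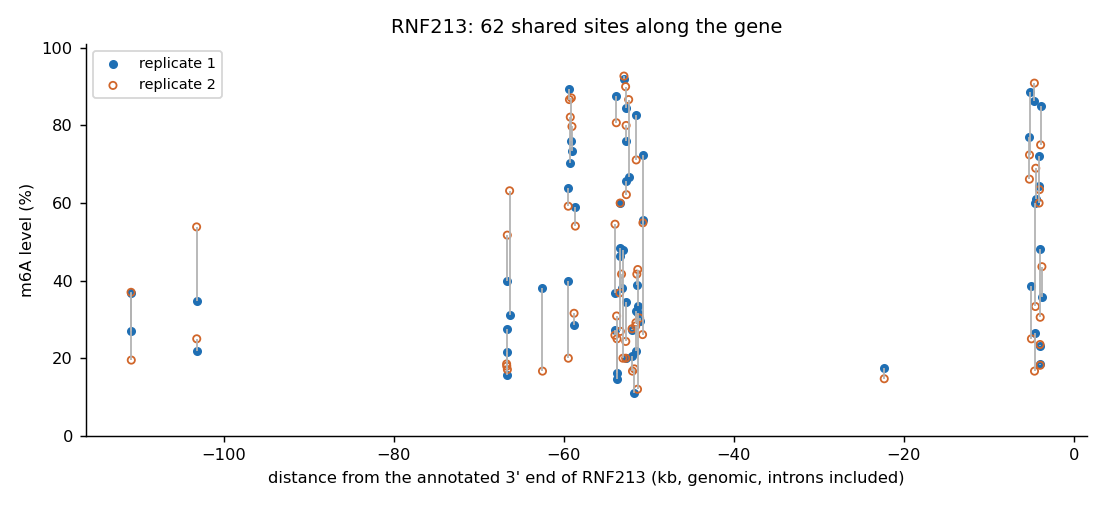
Level (y axis, %) of the 62 shared sites of RNF213 against genomic distance from the annotated 3′ end (x axis, kb, introns included), with replicate 1 as filled and replicate 2 as open circles joined by a grey line for each site. The 29 sites of the densest stretch lie between 50 and 55 kb before the end and range from 14.1% to 92.3%.

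RNF26 is a ligase of the endoplasmic reticulum membrane that positions endosomes and acts on STING. It was the densest gene of the group over the annotated gene, introns included. From first to last site others were denser, such as RNF216P1 (13 within 850 bases) and TRIM16L (11 within 556). The 28 shared sites of RNF26, of 28 and 29 listed, spanned 2525 bases. The gene covers 2.78 kb of chromosome 11 (119334527 to 119337309, plus strand). Genes of like coverage had a median of 3 sites. The level was 61% in replicate 1 and 61.2% in replicate 2 (mean 61.1% ± 0.48), against 35.7% in like-covered genes, the 95th percentile. Position 119335102 was almost fully methylated, with 97 of 99 and 126 of 126 reads (98.0% and 100%, 96.8 to 99.8). Its best covered site, position 119334952, lies 150 bases upstream and had only 18.7% and 20.5% (379 and 419 reads, 17.1 to 22.6). Along RNF26, 10 of the 28 sites were at 80% or more and 3 under 20%, and only 2 lay in the last 10% of the gene.

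RNF26 belongs to a list chosen by role. The list of 16 ligases of the endoplasmic reticulum and other membranes had 9 genes with shared sites, 7 above and 0 below the number of sites of their like-covered genes and 6 above and 3 below in level, with a median level of 61.1%. Over all other genes 45% lay above in number and 50.1% in level. RNF122 had 5 sites at 78.5% ± 1.5, against 46.2% in like-covered genes. RNF182 had 6 at 78.2% ± 2.0, against 57.5%. RNF139, a ligase of sterol-regulated degradation also called TRC8, had 6 at 66.3% ± 2.4, against 53.5%, and RNF145, another sterol-responsive ligase, had 3 at 66.9% ± 3.7, against 53.8%. RNF185, which acts in degradation of misfolded membrane proteins, had 16 sites at 45.9% ± 1.1, just under the 46.5% of like-covered genes, and all 16 lay in the last 10% of the gene, from 12.4% at position 31206888 to 97.5% at 31204624 of chromosome 22. The protease-associated membrane ligases looked different, with a median level of 29.6% over 7 genes, of which 2 lay above and 5 below in number of sites and 3 above and 4 below in level. Among them RNF43, which removes Wnt receptors from the cell surface, had 5 sites at 74.8% ± 2.5, whereas RNF130 had 4 at 22.1% ± 1.7 and RNF167, an endolysosomal ligase, a single one with 11.3% and 11.8% (559 and 711 reads). RNF167 is deeply covered and RNF43 thinly (gene coverages of 203.9 and 12.03), and the part of depth in this difference was not tested.

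RNF146 had the highest level of any member with at least 5 sites. It encodes the ligase that recognises poly(ADP-ribose) and promotes the breakdown of axin in Wnt signalling. All 8 sites lay in the last 10% of the gene, with levels of 79.3% in replicate 1 and 80.5% in replicate 2 (mean 79.9% ± 1.7), against 52.4% in like-covered genes. Position 127287549 of chromosome 6 (plus strand) had 53 of 54 reads in both libraries (98.1%, 93.5 to 99.5), and 5 of the 8 sites were at 80% or more. At the other end RNF187, a coactivator of AP-1 also called RACO-1, had 6 sites within a narrow range from 17.0% to 34.0%, with a mean of 23.3% ± 0.56, and 3 of them were the deepest sites of the group. Its position 228494101 of chromosome 1 (plus strand) had 23.4% and 22.9% (1356 and 1549 reads, 21.6 to 24.7). The like-covered genes of RNF187 had a median of 29.9%, and its gene coverage was 362.9, against 21.6 for RNF146.

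**Figure D5:**
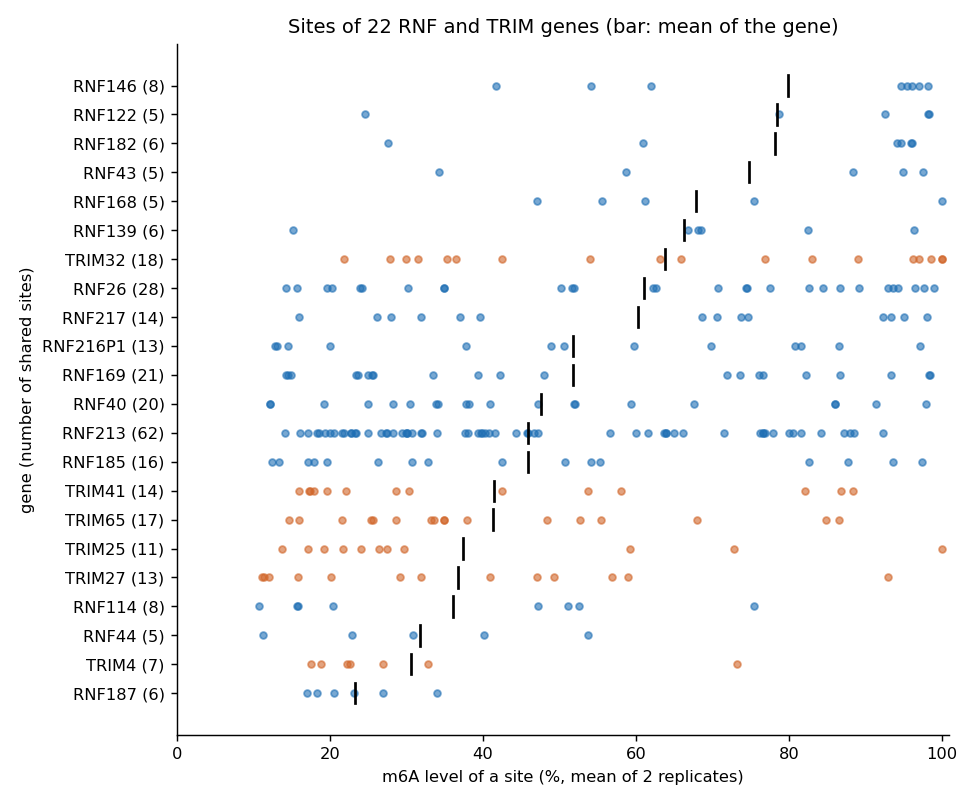
Levels (x axis, %) of all shared sites of 22 RNF (blue) and TRIM (orange) genes, the ones with the most sites and with the highest and lowest means among genes with at least 5 sites; each point is a site, the black bar is the mean of the gene, and the number of sites is in brackets. Means run from 79.9% in RNF146 to 23.3% in RNF187, while single sites of most genes spread from under 20% to over 80%.

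Ligases of chromatin and DNA repair ranged from 1 shared site to 21. Of 6 such genes with shared sites, 5 lay above and 1 below their like-covered genes in number, and 3 above and 3 below in level, where 45% of all other genes lay above in number and 50.1% in level. RNF8 and RNF168 act in turn at DNA double-strand breaks, and RNF169 binds the ubiquitin mark that RNF168 leaves. RNF169 had 21 shared sites, 19 of them in the last 10% of the gene, at 51.0% in replicate 1 and 52.6% in replicate 2. Its best covered one, position 74842174 of chromosome 11 (plus strand), had 83.2% and 81.3% (250 and 251 reads, 78.7 to 85.3). RNF168 had 5 sites at 67.9% ± 2.6, with all 21 and 19 reads methylated at position 196471675 of chromosome 3 (91.2 to 100), and RNF8 had 9 at 41.3% ± 1.4. RNF40 and RNF20, which together ubiquitylate histone H2B, had 20 sites at 47.6% ± 0.67 and 6 at 46.8% ± 1.6. RNF2, the catalytic ligase of Polycomb complex PRC1, had 1 site, with 35.9% and 35.3% (39 and 34 reads), and was the gene of this list that lay below. The SUMO-targeted ligases RNF4 and RNF111 had 11 sites at 40.6% ± 1.2 and 6 at 52.3% ± 2.5.

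Among ligases of the RING-between-RING class, which pass ubiquitin through a cysteine of their own, RNF217, RNF216 and RNF19B had 14, 9 and 9 sites and the other 4 genes 4 or fewer. Of the 7 genes 3 lay above and 4 below in number of sites, and 4 above and 3 below in level, with a median level of 60.3%. Among all other genes 45% lay above in number and 50.1% in level. RNF217 had 14 sites at 62.3% in replicate 1 and 58.4% in replicate 2, among them position 125083279 of chromosome 6 with 52 of 53 and 49 of 50 reads methylated. RNF31, the catalytic subunit of the linear ubiquitin assembly complex, had 1 site with 75.5% and 74.5% (49 and 55 reads), the 99th percentile in level of its like-covered genes. Replicate 2 listed a second RNF31 site, and its mean over both was 43.7%. RNF14 had 4 sites at 72.0% ± 2.1. Outside this class, RNF7, the small RING subunit of cullin ligases, had 7 at 44.9% ± 1.9, and RNF135, a partner of RIG-I, had 5 at 46.6% ± 3.0. In the RNF114 family, both genes with shared sites lay above in number and below in level, RNF114 with 8 sites at 36.1% ± 1.8 and RNF166 with 7 at 49.1% ± 1.8.

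Among TRIM genes the TIF1 group of chromatin regulators had low levels, with 2 genes above and 0 below in number of sites. For all other genes, 45% lay above in number and 50.1% in level. TRIM28 is the corepressor of KRAB zinc finger proteins and the most deeply covered gene of all 95 (gene coverage 659.2). It had 2 shared sites, of 16.5% and 13.4% at position 58549125 (829 and 1055 reads) and 13.6% and 10.4% at 58545431 of chromosome 19 (448 and 479 reads). TRIM24 had 7 sites at 38.7% ± 2.1 and TRIM33, which regulates SMAD4, 7 at 40.6% ± 1.9. All 3 lay below the level of their like-covered genes (28.6%, 46.6% and 52.2%), though like coverage is loose for TRIM28, since the highest coverages are widely spaced. The NHL-repeat group, which contains RNA-binding and neuronal ligases, had all 3 genes above in number and in level. TRIM32, a ligase mutated in limb-girdle muscular dystrophy, had 18 sites at 63.2% in replicate 1 and 64.4% in replicate 2 (mean 63.8% ± 1.3, against 49.8%), and all 43 and 67 reads were methylated at position 116699052 of chromosome 9 (plus strand, 96.6 to 100). TRIM2 had 9 sites at 66.1% ± 2.2, against 56.1%, and TRIM3 4 at 64.1% ± 3.7, against 58.2%. In level TRIM32, TRIM2 and TRIM3 stood at percentiles 77.5, 75.5 and 65 of their like-covered genes.

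The largest TRIM class carries a C-terminal PRY-SPRY domain. Of 18 such genes with shared sites 11 lay above and 2 below in number, where 45% of all other genes lay above. In level 9 lay above and 9 below, where 50.1% of all other genes lay above. The median level of the 18 genes was 49.98%. TRIM65 had 17 sites at 41.3% ± 0.76, none in the last 10% of the gene, with 87.2% and 86.1% at position 75890966 of chromosome 17 (203 and 237 reads). TRIM41 had 14 sites at 41.5% ± 1.0 and TRIM27 13 at 36.7% ± 0.85. TRIM25, which ubiquitylates the RNA sensor RIG-I, had 11 sites at 37.4% ± 1.3, and a single one stood out: at position 56891776 of chromosome 17 (minus strand) all 38 and 54 reads were methylated (96.0 to 100), whereas position 56891842, 66 bases upstream, had 13.9% and 13.4% (72 and 82 reads). TRIM21, the cytosolic antibody receptor, had 1 shared site with 95.8% and 88% (24 and 25 reads). Replicate 2 listed 3 sites of TRIM21, and their mean was 73.8%. TRIM26 had 9 at 62.1% ± 1.6, TRIM4 7 at 30.6% ± 1.6 and TRIM22 1 at 39.5% ± 8.5.

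TRIM genes outside these classes were mixed, with 5 above and 3 below in number of sites and 3 above and 5 below in level. Of all other genes 45% lay above in number and 50.1% in level. TRIM8 had 13 sites at 42.2% ± 1.3, TRIM45 12 at 52.1% ± 1.9 and TRIM13 10 at 52.9% ± 2.0. TRIM56, an antiviral ligase, had 5 sites at 54.4% ± 2.9 where like-covered genes had 1. TRIM44 had 6 at 38.9% ± 2.2, and TRIM37, a centrosome regulator, 2 at 47.5% ± 3.9. TRIM9, a neuronal ligase, was the only member of the COS-box class with a shared site, with 5 at 43.3% ± 3.3; MID1 and MID2, of the same class under another name, had 16 and 15.

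Neighbouring sites often had very different levels. Of 131 pairs at most 30 bases apart, the median difference was 20.9 points, and 29 pairs (22.1%) differed by at least 50 points, against 23.9 points and 19.8% in other genes. In RNF41 positions 56206606 and 56206611 of chromosome 12, 5 bases apart, had 18.03% (10.2 to 28.0) and 96.5% (88.7 to 98.6). In RNF40, positions 30774122 and 30774131 of chromosome 16 had 12.1% (9.17 to 15.4) and 86.1% (82.6 to 89.0) from 419 and 452 reads in total. RNF157 had 3 sites in a row at 93.7%, 17.0% and 96.8%, 13 and 15 bases apart. RNF4, RNF11 and RNF122 held similar pairs. In each of the pairs given with intervals, the intervals did not overlap, so the contrast is larger than the counting error. Of 131 distances of 4 to 30 bases, 46.6% were multiples of 3 (38.2 to 55.1), against 39.5% in other genes (38.5 to 40.4). The share was 47.4% without RNF213, 49.5% in RNF genes and 38.2% in TRIM genes. RING ligases of other names, described below, had 45.5%. In members 0 distances were shorter than 4 bases, and other genes had 46 beside 10319 of 4 to 30 bases.

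Many sites lay towards the 3′ end. In the last 10% of the annotated gene, introns included, lay 310 of the 660 sites (47.0%, 43.2 to 50.8), or 49.5% (45.5 to 53.5) without RNF213, against 42.9% (42.5 to 43.3) in other genes. The families differed: the share was 53.4% (48.7 to 58.1) in RNF genes, 58.6% (53.5 to 63.6) without RNF213, and 35.2% (29.3 to 41.5) in TRIM genes. Within 1 kb of the annotated 3′ end the order was the other way round, with 18.8% of the members' sites against 22.8% in other genes. Without RNF213 the members' share was 20.7%. RNF genes had 21.3%, or 24.9% without RNF213, and TRIM genes 14.2%. The order against other genes thus turned neither in RNF genes without RNF213 nor in TRIM genes. Of the genes with at least 5 sites, 12 of 35 RNF genes and 1 of 20 TRIM genes had all of them in the last 10%. Among other genes 715 did, counted over genes with at least 5 sites inside the annotated gene. These 715 equal 18.1% of the 3960 other genes with at least 5 shared sites anywhere, a slightly different set. The sites of a gene are not independent, so these intervals are too narrow for a comparison of families, and none was tested. The single TRIM gene was TRIM16L, with 11 sites, while RNF4, RNF114, RNF121, RNF146, RNF157 and RNF185 were among the RNF genes. In TRIM genes the sites of the last 10% had a median level of 39.7%, against 47.2% before it, and in RNF genes 47.9% against 40.3%.

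A few members need care in reading. RNF216P1, TRIM16L and RNF126P1 are annotated as transcribed pseudogenes, and reads of such copies can be hard to tell from those of the parent gene. RNF216P1 had 13 sites at 51.8% ± 0.95 and RNF216 9 at 43.3% ± 1.5. TRIM16L had 11 sites at 40.8% ± 1.2, against 1 in TRIM16 at 36.3% ± 7.3. RNF126P1 had 2 at 17.4% ± 1.9 and RNF126 2 at 58.8% ± 2.1, but over the sites listed in replicate 2 alone the levels were 43.5% (3 sites) and 34.6% (4 sites), so their order turned. TRIM52-AS1 is a noncoding RNA next to TRIM52, with 4 sites at 69.3% ± 2.3, and RNF103-CHMP3 and TRIM59-IFT80 are readthrough genes with 2 sites each. The sources used here do not say how the authors assigned reads among these genes.

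Ligases with a RING domain but another name were set beside the members. Of 82 such genes listed for comparison 68 had shared sites, with a median of 5 sites and a median level of 51.5%. The number of sites was above that of like-covered genes in 36 (52.9%) and the level in 38 (55.9%). TRAF3, a signalling adaptor, and ZNRF3, the partner of RNF43 in removing Wnt receptors, led with 19 sites each at 50.3% and 75.8%, followed by MARCHF9 and MID1 with 16 each. Only 1 of the 68 (1.47%) reached the 90th percentile of like-covered genes in number, against 10.5% of members and 9.45% of all other genes. Their neighbouring sites differed by a median of 30.8 points, against 20.9 in members, and by at least 50 points in 15.2% of pairs, against 22.1%. The share in the last 10% of the gene was 45.0% (40.3 to 49.9). None of these genes reached the number of sites of RNF213, RNF26, RNF169 or RNF40.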

How the data were processed

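Per the labels, HEK293T mRNA was treated by GLORI and made into 2 libraries. Per the submitters' processing notes, the build was GRCh38 and the tools included STAR, Bowtie, SAMtools and Trim Galore (0.6.6); the sources used here do not give the site caller or the annotation. Per the file headers, the deposited lists hold, per site, read counts (A plus G, and A alone), the A fraction, and the authors' p-value, raw and adjusted. Per gene they hold a conversion fraction and a coverage signal that the authors computed before they deposited the files, per the file headers; how is not stated there. The ratio equalled A over A plus G within 5e-06. The authors' p-values were not used further. The lists total 5221660 and 6306522 reads at listed sites, which is not the depth of the libraries.

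Sites were joined by chromosome, position and strand with pandas 2.3.3. Fisher's exact test (SciPy 1.17.1), two-sided with Benjamini-Hochberg adjustment at 0.05 over all shared sites, compared the libraries, and was tested on simulated data. Gene errors are counting SEs; site intervals are 95% Wilson intervals on summed counts. Like-covered genes are the 200 others nearest in mean gene coverage, 100 on each side, shifted at the ends. Gene ends and biotypes came from RefSeq GRCh38.p14, matched by symbol or unique synonym for all 106 members and 9391 of the 9521 genes with a shared site. Named genes are the 10 with the most shared sites, the 6 highest and 6 lowest in level with at least 5 sites, a list by role, and for each gene its highest, lowest and most covered site; RNF11, RNF19B, RNF41, RNF113A, RNF121, RNF130, RNF157, RNF166, RNF167, RNF181, RNF220, TRIM7, TRIM13, TRIM22, TRIM45, TRIM52-AS1, the readthrough genes and the copies were named after their values were seen. Members and lists were chosen with earlier results of these data known. Alternatives covered coverage and level minimums, each replicate alone, the members and the matching.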

Additional observations from a re-analysis of the deposited data

How the results depend on the processing

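Of 60 alternative values, 46 stayed within the spread allowed (1.5 times for counts, the 95% interval for medians and shares) and 14 did not. With at least 30 reads per site the members held 414 shared sites, a median of 3 per gene, a median level of 42.9% and 33 genes above like-covered genes in number of sites. With at least 50 reads there were 53 genes with 249 sites, a median of 3 sites and a level of 36.6%, with 28 genes above in number and 28 in level; the median level was then below the 38.0% of other genes, while with all shared sites it was above. With a level of at least 20% the median level was 56.0%. Using 1 library only, the median level ran from 44.6% to 47.0%. The genes above like-covered genes in level numbered 53 to 61, of 100 to 102. Within 1 kb of the 3′ end lay 18.8% of the sites (20.7% without RNF213), against 22.8% in other genes. The order seen in the last 10% thus turned over all members. It did not turn for RNF genes without RNF213 (24.9%) or for TRIM genes (14.2%). At an unadjusted 0.05 Fisher's test had 17 sites; a chi-square test called 0 after adjustment and had 25 unadjusted. Leaving out RNF213 or genes that are not protein-coding moved none of the results recomputed (the share in the last 10% was recomputed only without RNF213), nor did matching by decile of coverage move the 2 like-coverage counts. Dropping sites that lay against the annotated strand removed 0 of 660 sites. An annotated strand was at hand for only 510 of them, in 75 of the 95 genes, and all 510 lay on it. The other sites were kept unchecked. No paired analysis was possible because the labels give 1 group. Depth limits all levels of thinly covered genes: at 15 reads, 5 A reads allow no level under 33.3%.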

Other observations

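All 4 members on chromosome 18 (RNF125, RNF138, RNF152 and RNF165) were among the 11 genes without a shared site. RNF165 had 3 sites in replicate 2 only, with levels of 13.5%, 83.3% and 94.7%, and the other 3 had 1 site each in replicate 1 only, from 20% to 53.3%. Across the series 9521 of 11406 named genes had a shared site, but the share among all genes of chromosome 18 was not computed. The pattern rests on 4 genes, was noticed in the data and was not tested.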
